A study of Mus musculus with 4 samples.

Results

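A set of genes of vitamin A metabolism is described here across the cell classes and libraries of a mouse colonic organoid experiment. The 8 genes (of 30360 in the count matrix) were chosen by name: Aldh1a1, Aldh1a2, Aldh1a3, Rbp2, Rbp4, Crabp2, Stra6 and Rarb. They were chosen from measured levels of these same libraries, that is from how the genes differed between classes and between libraries, so those levels and differences are given as a description with no test. The set is wider than synthesis and binding, since Stra6 is a membrane receptor for uptake and Rarb a nuclear receptor.

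The organoids were grown from the distal colon of mice, 16 weeks old per the labels (the study's methods give another age), either wildtype or Tnfr2-/-, which lack TNF receptor 2 (gene Tnfrsf1b) in the whole body, so that both the epithelium and the accompanying mesenchyme are of the same genotype. After passage 5, cultures were kept in vehicle or given 20 ng/ml of tumor necrosis factor (TNF), which began on day 1 and ended on day 6 of the passage, and on day 7 cells were harvested and depleted of apoptotic cells. The 4 libraries (10x Genomics, 3′ ends of polyadenylated RNA) held 2589 untreated and 1469 TNF-treated wildtype cells and 1117 untreated and 980 TNF-treated Tnfr2-/- cells, with 44547639 to 87228093 unique molecular identifiers (UMIs, each counting 1 captured transcript) per library. There was 1 library per condition, so no difference below has a replicate check, and the intervals given (95%, exact Poisson for levels and exact conditional for ratios) cover counting error only.

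The study's own annotation placed the cells in 7 epithelial and 4 mesenchymal classes and left 35 cells without a class. Levels are UMIs of a gene on a counts-per-million scale (CPM) over the summed cells; each UMI stands for 1 transcript end, so no correction for gene length was applied. Where 4 values follow each other, the first pair is wildtype (untreated, then TNF) and the second pair Tnfr2-/- in the same order. The 5 epithelial markers (Epcam, Krt8, Cdh1, Cldn7, Vil1) summed to 6820 to 9210 CPM in epithelial cells and 47.6 to 405 in mesenchymal cells, and the 5 fibroblast markers to 6380 to 12900 CPM in mesenchymal cells and 4.76 to 17.2 in epithelial cells, so the 2 populations carried the markers of their names. Immune, endothelial and glial markers summed to at most 16.8, 1.84 and 1.07 CPM in either population, and Ptprc and Cd3e were at 0 in the mesenchyme of every library. Only 3 cell barcodes occurred in more than 1 library. Tnfrsf1b itself was still counted in Tnfr2-/- epithelium (4.17, 12.1, 1.82 and 6.89 CPM) and mesenchyme (18.0, 19.2, 7.81 and 13.4 CPM), and 3′ counts check the deletion only where the counted end lies in the deleted part.

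Cells obtain vitamin A as retinol bound to the carrier RBP4, take it up in some tissues through STRA6, and hold it inside the cell on binding proteins such as RBP2, which is typical of absorptive enterocytes. Retinol is oxidized reversibly to retinal, and the aldehyde dehydrogenases ALDH1A1, ALDH1A2 and ALDH1A3 turn retinal irreversibly into retinoic acid. Retinoic acid, delivered by CRABP2, activates nuclear receptors of the RAR family, of which RARB is both a receptor and a target, and CYP26 enzymes break it down. In the intestine this pathway is known for its part in epithelial differentiation, in repair and in imprinting immune cells.

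A regulatory sequence known to link target genes to retinoic acid is a direct repeat of a 6-base element. RefSeq promoter windows on GRCm38.p6 (250 bases before to 50 bases after each start) were searched on both strands for 2 such elements (AGGTCA or AGTTCA, or else GGGTCA or GGTTCA) in the same orientation, spaced by 1, 2 or 5 bases. Windows were matched for 6 of the 8 genes and 40 of the 49 further retinoid genes, not for Aldh1a3 and Crabp2. Among the 6 genes, Rarb alone held a match, a repeat spaced by 5 bases that starts 53 bases before the start site. Of all 32544 windows, 0.0983% held a repeat with this spacing and 0.593% held any of the 3 spacings. The whole Rarb window is shown because it carries the classical element, with the 2 elements in capitals (chr14:16575427-16575726, minus strand):
Rarb: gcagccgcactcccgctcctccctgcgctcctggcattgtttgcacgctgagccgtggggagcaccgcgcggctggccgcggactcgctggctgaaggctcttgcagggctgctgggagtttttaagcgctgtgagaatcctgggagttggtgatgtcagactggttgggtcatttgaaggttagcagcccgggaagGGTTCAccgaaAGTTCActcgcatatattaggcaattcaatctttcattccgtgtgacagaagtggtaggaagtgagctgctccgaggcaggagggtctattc

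Matches were also found in 2 of the other retinoid genes, Cyp26a1 (retinoic acid breakdown; spacing 5; chr19:37697768-37697800, plus strand) and Bco1 (cleavage of carotene to retinal; spacing 1; chr8:117095801-117095829, plus strand). Both repeats read on the opposite strand, and they are shown for comparison with Rarb:
Cyp26a1: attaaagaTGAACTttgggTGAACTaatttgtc
Bco1: ttgggaacTGACCTtTGACCTaacacaca
A match is a description of letters in a window and not of binding. The 2 genes with the 5-base spacing were barely counted in these cells. Rarb had 47 UMIs in all 4 libraries together, and Cyp26a1 had 2, 0, 0 and 0 UMIs in mesenchyme and 0 in the epithelium of every library.

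The 3 ALDH1A genes divided between the populations. Aldh1a3 (chromosome 7, 66390890 to 66427517, minus strand, GRCm38) had 98.3% of its 16140 UMIs in epithelium, and Aldh1a2 (chromosome 9, 71215789 to 71296243, plus strand) had 96.6% of its 3932 UMIs in mesenchyme. Aldh1a1 (chromosome 19, 20492715 to 20643465, plus strand) had 74.1% of its 1584 UMIs in mesenchyme and 23.5% in epithelium. The count of Aldh1a1 is uncertain in one respect, since 11.3% of the 31-base stretches of its transcripts also occur in the neighbouring paralog Aldh1a7 and reads that match both may not have been counted. It shared 0 such stretches with Aldh1a2 and Aldh1a3.

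Within epithelium, Aldh1a3 made up 90.7%, 98.2%, 91.9% and 99.0% of the UMIs of the 3 genes. Within mesenchyme, Aldh1a2 made up 70.2%, 93.4%, 93.1% and 57.0%. Aldh1a1 gave 27.8% of mesenchymal ALDH1A UMIs in wildtype untreated cells, 6.90% in Tnfr2-/- untreated cells and at most 0.781% in both TNF libraries.

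**Figure D1:**
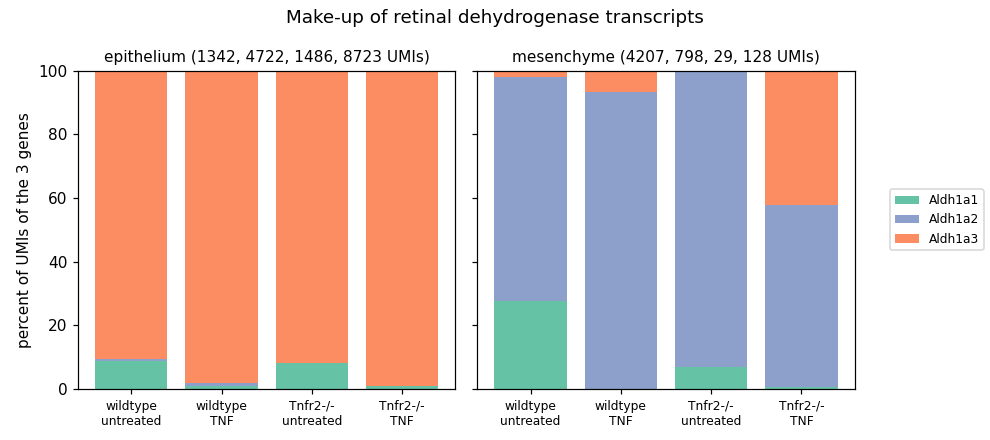
Stacked bars of the percent of Aldh1a1, Aldh1a2 and Aldh1a3 UMIs among the UMIs of the 3 genes (vertical axis), in epithelium (left) and mesenchyme (right) of the 4 libraries; total UMIs behind each bar stand above the panels. Aldh1a3 fills 90.7% to 99.0% of every epithelial bar, while Aldh1a2 is the larger part of every mesenchymal bar; the Tnfr2-/- untreated mesenchymal bar rests on 29 UMIs.

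Setting the populations side by side within a library, 4 members passed a minimum of 20 CPM in wildtype untreated cells and differed by at least 2-fold on the log2 (CPM + 1) scale, a size reached by 41.5% of all genes at that minimum. Aldh1a2 (84.9 against 0.159 CPM) and Aldh1a1 (33.7 against 2.33 CPM) were higher in mesenchyme, and Rbp2 (0.546 against 150.3 CPM) and Aldh1a3 (2.36 against 24.2 CPM) were lower. With TNF in wildtype cells, Aldh1a2 and Stra6 were higher and Aldh1a3 and Rbp2 lower in mesenchyme, where 37.4% of all genes differed. In the Tnfr2-/- libraries Aldh1a3 and Rbp2 were again lower in mesenchyme and no member passed as higher, against 44% of all genes untreated and 38.4% with TNF. There Aldh1a2 stood higher in mesenchyme (12.4 against 0.0197 CPM untreated, 15.3 against 0 with TNF) but under the 20 CPM minimum. So did Stra6 with TNF (12.4 against 0.151 CPM). The annotation was made from these same cells and genes, so these contrasts describe the classes and were not tested.

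**Figure D2:**
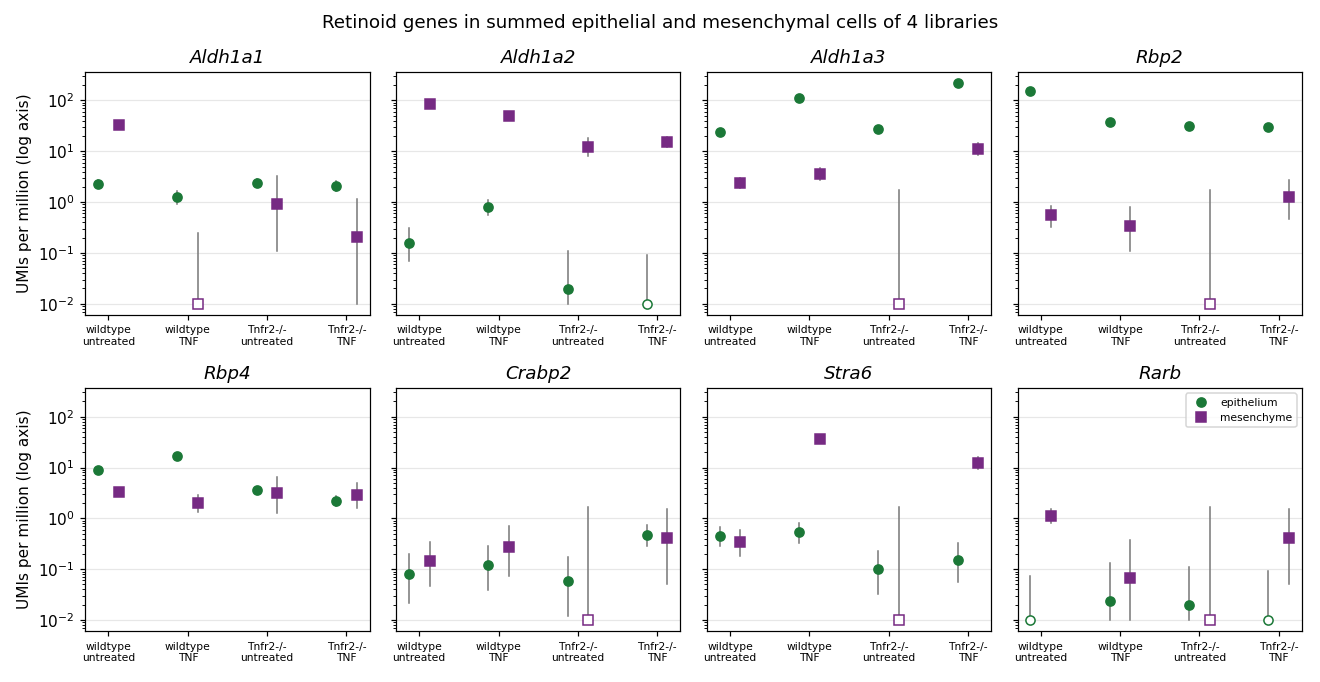
CPM (log axis) of the 8 genes in summed epithelial (green circles) and mesenchymal (purple squares) cells of the 4 libraries, with 95% Poisson intervals as grey lines, drawn down to 0.01 CPM at the lowest; open symbols at 0.01 CPM are counts of 0. Aldh1a3 and Rbp2 are above mesenchyme in epithelium of every library, Aldh1a2 is above epithelium in mesenchyme of every library, and Stra6 is above 1 CPM only in the mesenchyme of the 2 TNF libraries.

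Aldh1a3 was the member with the most UMIs, and its epithelial level was higher with TNF in both genotypes. It stood at 24.2 CPM in wildtype untreated epithelium, 112 with TNF, 27.0 in Tnfr2-/- untreated epithelium and 217 with TNF. Both TNF libraries were above both untreated libraries, and the untreated libraries of the genotypes lay close together. The TNF to untreated ratio was 4.64 (interval 4.35 to 4.94; log2 difference 2.17) in wildtype and 8.06 (7.61 to 8.54; 2.96) in Tnfr2-/- cells. Between genotypes the ratio was 1.11 untreated (1.03 to 1.21) and 1.94 with TNF (1.87 to 2.01), both under 2-fold on the log2 (CPM + 1) scale. With TMM scaling, the log2 difference of Aldh1a3 between the TNF-treated genotypes was 1.10 instead of 0.95.

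Almost all of this signal lay in 1 class. Progenitor.2 held 89.6%, 91.7%, 91.1% and 99.8% of epithelial Aldh1a3 UMIs while holding 5.50%, 23.5%, 22.8% and 83.4% of epithelial cells. Within Progenitor.2 the gene stood at 649 CPM in 62 wildtype untreated cells, 335 in 273 wildtype TNF cells, 126 in 233 Tnfr2-/- untreated cells and 256 in 716 Tnfr2-/- TNF cells. Here the wildtype untreated library was the highest and the Tnfr2-/- untreated library the lowest, and the intervals (611 to 689, 325 to 346, 119 to 133 and 250 to 261 CPM) did not overlap. The log2 difference between TNF and untreated was thus −0.95 in wildtype, under 2-fold, and 1.02 in Tnfr2-/- Progenitor.2 cells, where 7.46% and 1.99% of all genes differed by 2-fold or more. Between genotypes it was −2.36 untreated, against 7.98% of all genes, and −0.39 with TNF, against 7.92%.

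The share of Progenitor.2 cells was higher with TNF in both genotypes as well. Had each class of the wildtype untreated library kept its level but taken the class shares (of UMIs) of the TNF library, epithelial Aldh1a3 would have stood at 201 CPM, above the 112 counted. When only classes of at least 20 cells in both libraries were used, each with equal weight, the log2 difference of epithelial Aldh1a3 with TNF turned to −0.86 in wildtype (5 of the 7 classes, without Absorptive and Secretory-Reg4-Ang4) and was 0.99 in Tnfr2-/- cells (2 classes, Progenitor.1 and Progenitor.2). The calculation with exchanged class shares in Tnfr2-/- gave 107 CPM, against 27.0 untreated and 217 with TNF. The part of the class shares in the Aldh1a3 differences was not tested. Outside Progenitor.2 the highest level in a class of at least 100 UMIs of the gene was 18.1 CPM in wildtype TNF Progenitor.1 cells, against 2.17, 3.19 and 2.93 CPM in that class of the other libraries; 1 cell held 29.7% of those 330 UMIs.

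Aldh1a3 was uneven among Progenitor.2 cells. It was counted in 20 of 62, 152 of 273, 86 of 233 and 314 of 716 cells, and the tenth of cells with the most UMIs held 85.0%, 80.0%, 82.2% and 74.3% of them. In wildtype untreated cells 1 cell held 28.9% of the 1090 UMIs, and the level was 484 CPM without it. The Poisson interval does not cover this spread between cells. After thinning every cell to 5000 UMIs, the shares of Progenitor.2 cells with the transcript were 26.8%, 30.0%, 20.9% and 28.2%, with exact binomial intervals that overlapped (15.8 to 40.3%, 24.6 to 35.8%, 15.8 to 26.8% and 24.9 to 31.6%), so that the order of levels in CPM was not found in the share of cells. In mesenchyme the thinned shares were 0.847%, 0.671%, 0% (0 of 86 cells) and 2.50%.

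**Figure D3:**
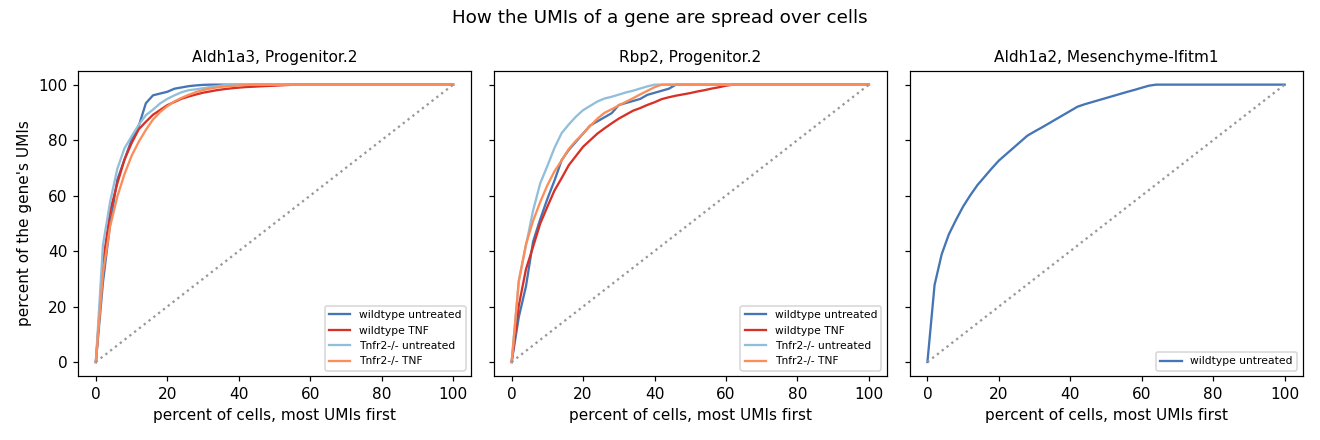
Percent of a gene's UMIs (vertical axis) held by the percent of cells shown on the horizontal axis, cells with most UMIs first, for Aldh1a3 and Rbp2 in Progenitor.2 and Aldh1a2 in Mesenchyme-Ifitm1; the dotted line marks an even spread. The tenth of cells with most Aldh1a3 held 74.3% to 85.0% of its UMIs in the 4 libraries, against 57.0% to 72.1% for Rbp2 and 56.3% for Aldh1a2.

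The Progenitor.2 cells that carried Aldh1a3 were compared with the rest of their class within each library. Cells with at least 5 UMIs of the gene (16, 80, 42 and 204 cells) were summed and set against cells with none (42, 121, 147 and 402 cells). Of 5011 genes at 20 CPM or more in either sum of every library, 74 were higher by 2-fold or more in the Aldh1a3 cells of all 4 libraries and 118 were lower by as much, Aldh1a3 itself among the former by construction. The genes named from this comparison were chosen after their values were seen, and the cells share libraries and class, so no test is given.

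Krt14, a keratin of stratified epithelium, and Clu, a marker of revival stem cells, were both among the genes higher with Aldh1a3. Krt14 stood at 414, 255, 601 and 126 CPM in cells with Aldh1a3 and 3.57, 2.98, 95.6 and 2.16 CPM in cells without. Clu stood at 2421, 2532, 6193 and 4099 CPM against 371, 153, 1233 and 285 CPM. Anxa1, a gene of wound-associated epithelium, was higher by a log2 difference of 2.94, 2.73, 1.84 and 2.35, and Ly6a, known from regenerating intestinal epithelium, by 0.79, 0.79, 0.82 and 1.45, which is under 2-fold in 3 libraries. Epcam and Krt8 were high in both sets of cells, with log2 differences on both sides of 0 (Epcam −1.44, −0.09, −0.16 and 0.38). Of the other epithelial markers, Vil1 was lower with Aldh1a3 in each library (−2.38, −0.73, −1.91 and −1.09). Cldn7 was also lower in each (−1.04, −0.29, −0.45 and −0.24), and Cdh1 went both ways (−0.43, 0.32, 0.01 and 0.20). Krt5 and Trp63, which define squamous basal cells, were at or near 0 in both sets (Trp63 at 0 in all 8 sums, Krt5 at most 0.772 CPM). Of the 5 squamous markers (Krt5, Krt14, Krt13, Trp63, Dsg3), 1 was at the minimum in all 4 libraries, Krt14. Dsg3 went both ways, with log2 differences of −1.91, 1.94, 0.53 and 2.14. The 5 summed to 106, 48.4, 83.7 and 61.7 CPM over all epithelium.

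Of the 5 absorptive markers, 2 (Car1 and Krt20) were at the minimum in all 4 libraries, and Car1 was lower by 2-fold or more in each. Car1, a carbonic anhydrase of absorptive cells, stood at 17.6, 242, 15.4 and 45.7 CPM in cells with Aldh1a3 against 7792, 1876, 1126 and 885 CPM in cells without. Krt20 differed by −1.24, −0.37, −2.85 and −0.44 on the log2 scale. Of the 6 goblet and deep secretory markers, 1 was at the minimum throughout, Agr2, which differed by −3.74, −1.81, −3.53 and −3.21.

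Of the 49 further retinoid genes, 11 were at the minimum in all 4 libraries. Of these, 1 (Fabp5) was higher and 1 (Ttr) lower by 2-fold or more with Aldh1a3 in each library. Fabp5, which can carry retinoic acid, differed by 4.59, 2.44, 1.12 and 1.04. Ttr, whose product transthyretin carries RBP4 in plasma, differed by −5.90, −3.13, −6.62 and −3.71. Adh1, a retinol-oxidizing alcohol dehydrogenase that missed the minimum in at least 1 library, differed by −4.88, −2.89, −3.29 and −3.03. For Rbp2 the log2 differences were −3.37, −0.91, −4.09 and −1.37. Rdh10, the retinol dehydrogenase that makes retinal, stood at 353, 348, 339 and 351 CPM with Aldh1a3 and 139, 164, 224 and 154 CPM without, which is under 2-fold in Tnfr2-/- untreated cells (0.60). The cells with Aldh1a3 were also deeper, with median UMIs of 51929, 49890, 50655 and 47776 against 10991, 34651, 28465 and 34714. When only cells of at least 10000 UMIs were used, 71 of the 74 and 110 of the 118 genes were found again, although the gap in depth remained in every library (51929 against 16275 median UMIs in wildtype untreated cells), and its part in the differences was not tested.

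**Figure D4:**
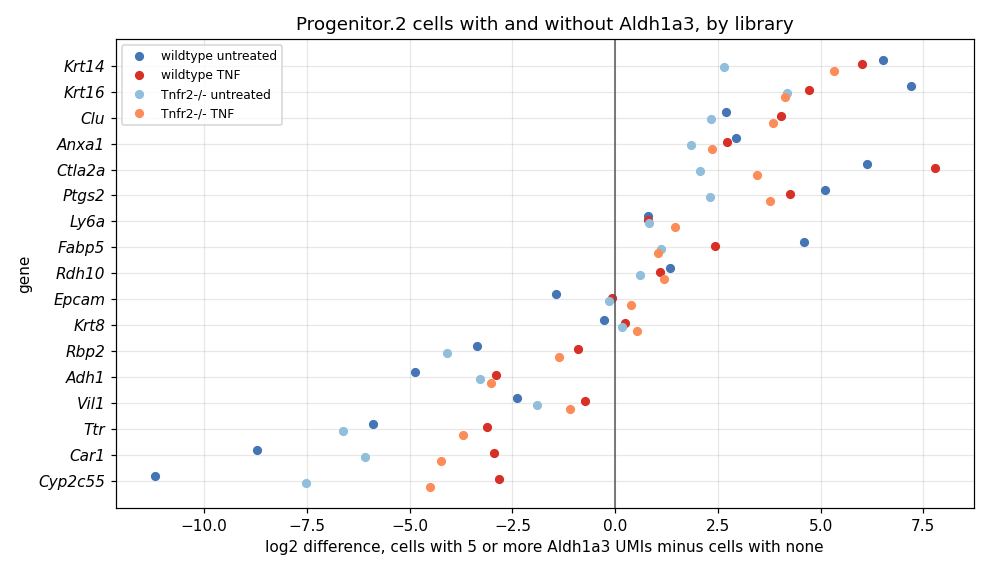
Log2 difference (horizontal axis) between Progenitor.2 cells with 5 or more Aldh1a3 UMIs and cells with none, for 17 genes chosen after their values were seen; each point is 1 library. Krt14, Krt16, Clu, Anxa1, Ctla2a, Ptgs2, Ly6a, Fabp5 and Rdh10 lie right of 0 in all 4 libraries and Rbp2, Adh1, Vil1, Ttr, Car1 and Cyp2c55 left of it in all 4, whereas Epcam and Krt8 lie on both sides.

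Rbp2 (chromosome 9, 98486115 to 98509781, plus strand) was the epithelial binding protein of the set, with 98.2% of its 12142 UMIs in epithelium and 0.247% in mesenchyme. Its epithelial level was 150.3, 38.6, 31.4 and 29.6 CPM, so that the wildtype untreated library stood above the other 3, which lay near each other. The TNF to untreated ratio was 0.257 in wildtype (interval 0.243 to 0.271; log2 difference −1.94) and 0.942 in Tnfr2-/- (0.873 to 1.02; −0.08). Between genotypes the ratio was 0.209 untreated (0.198 to 0.220; −2.22) and 0.767 with TNF (0.710 to 0.827; −0.37).

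The high library was the one with absorptive cells. Its 319 Absorptive cells held 89.6% of epithelial Rbp2 UMIs at 422 CPM, whereas 19, 11 and 1 cells of that class were found elsewhere. Those 19 wildtype TNF cells stood at 331 CPM and the 11 Tnfr2-/- untreated cells at 263 CPM. With wildtype untreated class levels and the class shares of the wildtype TNF library, Rbp2 would have stood at 46.2 CPM, against 38.6 counted. With the class shares of the Tnfr2-/- untreated library it would have stood at 36.2 CPM, against 31.4 counted. The part of the class shares in the Rbp2 differences was not tested. Equal weights for the classes of at least 20 cells in both libraries, which left out Absorptive, gave a log2 difference of −0.37 both with TNF in wildtype and between untreated genotypes, but these classes held 10.4% and 10.3% of the Rbp2 UMIs of wildtype untreated epithelium. The absorptive markers (Car1, Aqp8, Slc26a3, Car4, Krt20) were also highest in the wildtype untreated library, at 4150, 790, 368 and 517 CPM summed in epithelium. Among the other libraries they did not follow Rbp2. In Tnfr2-/- epithelium the marker sum was higher with TNF, whereas Rbp2 stood at 31.4 CPM untreated and 29.6 CPM with TNF. The sum is not a measure of Absorptive cells alone, since Car1 was also counted outside that class.

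Outside the absorptive class, Rbp2 was next highest in Progenitor.2, at 81.0, 83.1, 64.7 and 32.1 CPM. The wildtype libraries did not differ beyond counting error (ratio 1.03, 0.857 to 1.24), and the Tnfr2-/- TNF library was the lowest, at 0.386 of wildtype TNF (0.355 to 0.421; log2 difference −1.35). After thinning to 5000 UMIs, 35.7%, 26.7%, 19.6% and 13.0% of Progenitor.2 cells held an Rbp2 UMI (46.8%, 61.5%, 39.9% and 41.3% before thinning), against 0.282%, 0%, 0% and 0% of mesenchymal cells. In these thinned cells Rbp2 was found in 13.3%, 19.8%, 6.38% and 9.50% of cells with Aldh1a3 and in 43.9%, 29.6%, 23.0% and 14.3% of cells without it. The share was lower in cells with Aldh1a3 in each library, with 2, 16, 3 and 19 cells holding both. In wildtype untreated cells the thinned cells with Aldh1a3 had come from deeper cells (median 51893 against 14736 UMIs before thinning), and in the other libraries the medians lay between 34370 and 40306. In Tnfr2-/- untreated epithelium, 1 of 18 Enteroendocrine cells alone held 164 Rbp2 UMIs, 10.3% of that library's epithelial Rbp2.

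Of the 8 genes in epithelium, only Aldh1a3 and Rbp2 reached 20 CPM in a library; the other 6 stayed under it in all 4. With TNF in wildtype epithelium both differed by 2-fold or more, in opposite directions, where 3.62% of all 5833 genes at the minimum did. In Tnfr2-/- epithelium 1 of the 2 did (Aldh1a3), against 13.4% of genes. Between genotypes 1 of the 2 did untreated (Rbp2), against 6.01%, and 0 with TNF, against 11.4%. These genes were chosen for such differences, so nothing is read from the counts.

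**Figure D5:**
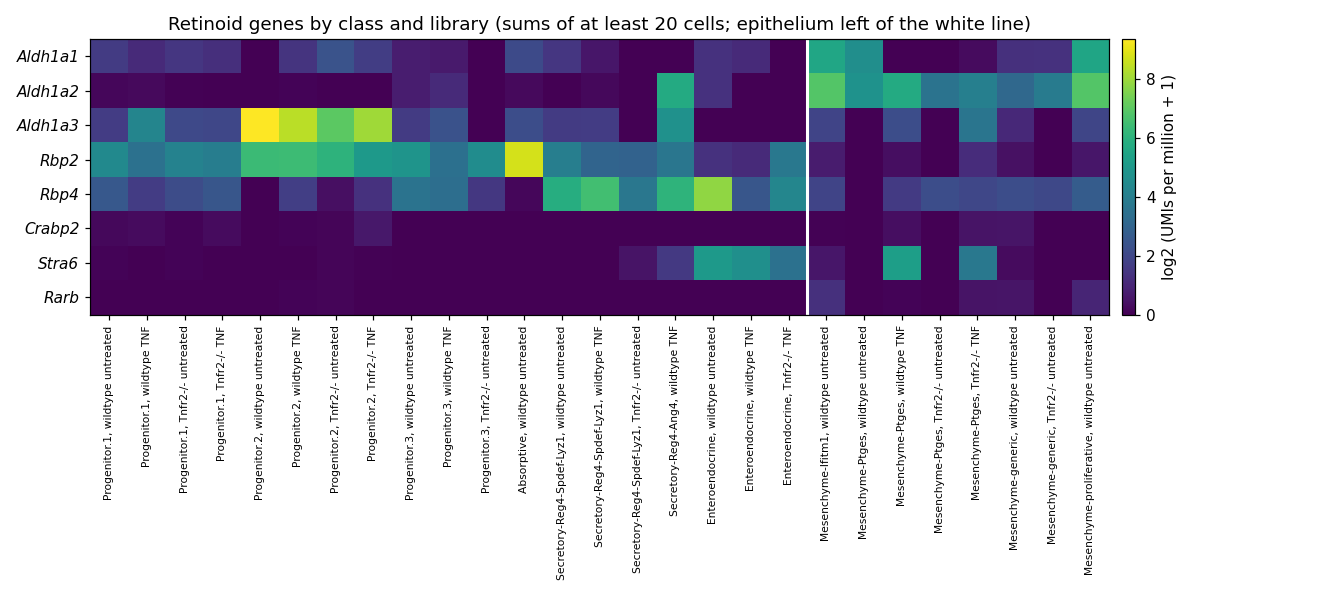
Levels of the 8 genes (rows) in the 27 sums of at least 20 cells (columns, class and library), as log2 (CPM + 1) by colour; epithelial classes stand left of the white line. The brightest cells are Aldh1a3 in Progenitor.2 (649 CPM at most), Rbp2 in wildtype untreated Absorptive (422 CPM) and Rbp4 in wildtype untreated Enteroendocrine (221 CPM), and in that library Aldh1a1 and Aldh1a2 stand at 45.4 and 112 CPM in Mesenchyme-Ifitm1 but at 1.45 and 7.91 CPM in Mesenchyme-generic.

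Rbp4 (chromosome 19, 38116629 to 38125281, minus strand), the retinol carrier, had 87.8% of its 1633 UMIs in epithelium, at 9.02, 17.2, 3.59 and 2.19 CPM. Both wildtype libraries were above both Tnfr2-/- libraries. The highest class levels were in secretory and Enteroendocrine cells, while Progenitor.1 held 29.7%, 5.49%, 70.3% and 27.6% of its epithelial UMIs and Progenitor.2 held 59.8% in Tnfr2-/- TNF. In Secretory-Reg4-Spdef-Lyz1 cells, the class of deep crypt secretory genes, it stood at 55.0, 90.8 and 12.1 CPM in 73, 111 and 63 cells of the first 3 libraries, with intervals that did not overlap (46.7 to 64.3, 83.6 to 98.5 and 8.12 to 17.4). This class held 34.4%, 82.5% and 15.9% of epithelial Rbp4 UMIs in those libraries. After thinning, 20.8%, 29.2% and 6.45% of its cells held an Rbp4 UMI, against 1.41% of wildtype untreated mesenchymal cells.

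The highest Rbp4 level of any class was 221 CPM in 33 wildtype untreated Enteroendocrine cells, but it rested on 5 cells, and 1 cell held 63.4% of the 145 UMIs; the level was 87.6 CPM without it. Enteroendocrine cells of the TNF libraries stood at 4.60 CPM (4 UMIs, wildtype) and 18.5 CPM (9 UMIs, Tnfr2-/-). Secretory-Reg4-Ang4 cells of wildtype TNF stood at 66.7 CPM (34 UMIs). In mesenchyme Rbp4 stood at 3.31, 1.97, 3.22 and 2.93 CPM, with a TNF to untreated ratio of 0.597 in wildtype (0.383 to 0.903) and 0.913 in Tnfr2-/- cells (0.345 to 2.67). Both Rbp4 and Aldh1a1 lie on chromosome 19, whose genes stood apart in Tnfr2-/- epithelium: their median log2 difference from wildtype exceeded that of all genes by 0.44 untreated and 0.48 with TNF, against 0.01 in mesenchyme in both. Rbp4 was lower and not higher in that comparison, and epithelial Aldh1a1 was at 2.33, 1.26, 2.37 and 2.11 CPM. The part of the chromosome in these levels was not tested.

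Aldh1a2 was the mesenchymal retinal dehydrogenase, and summed over classes it was higher in wildtype than in Tnfr2-/- mesenchyme. It stood at 84.9 CPM in 1430 wildtype untreated cells, 50.7 in 306 wildtype TNF cells, 12.4 in 90 Tnfr2-/- untreated cells and 15.3 in 122 Tnfr2-/- TNF cells, so both wildtype libraries were above both Tnfr2-/- libraries. The Tnfr2-/- to wildtype ratio was 0.146 untreated (interval 0.0961 to 0.213; log2 difference −2.68) and 0.302 with TNF (0.234 to 0.385; −1.66). With TNF in wildtype the ratio was 0.597 (0.550 to 0.647; −0.73), under 2-fold. In epithelium it was counted 8, 33, 1 and 0 times, and 26 of the 33 UMIs lay in the 246 cells of Secretory-Reg4-Ang4, a class found in wildtype TNF epithelium that held 1.23% of its UMIs. That class stood at 51.0 CPM of Aldh1a2, as did Mesenchyme-Ptges of the same library. Its cells had a median of 1958 UMIs, and the 5 fibroblast markers summed to 683 CPM in them, against 5.42 to 8.99 CPM in Secretory-Reg4-Spdef-Lyz1, Progenitor.1 and Progenitor.2 and 6590 CPM in Mesenchyme-Ptges. The part of this fibroblast RNA in the Aldh1a2 level of the class was not tested.

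The mesenchymal classes were not shared evenly between libraries, and Aldh1a2 differed between them. Mesenchyme-Ifitm1 (892 cells) and Mesenchyme-proliferative (111 cells), both of at least 20 cells only in wildtype untreated, stood at 112 and 114 CPM of Aldh1a2 with overlapping intervals (108 to 117 and 104 to 125). Mesenchyme-generic was far lower, at 7.91 CPM in 393 wildtype untreated and 13.7 CPM in 51 Tnfr2-/- untreated cells. In this class the Tnfr2-/- level was therefore not the lower one, and the intervals overlapped (6.18 to 9.98 and 8.14 to 21.7). In Mesenchyme-Ptges, which held 99.3% and 100% of mesenchymal cells of the TNF libraries, Aldh1a2 stood at 26.3 CPM in 34 cells (9 UMIs), 51.0 in 304 cells (745 UMIs), 10.8 in 37 cells (9 UMIs) and 15.3 in 122 cells (73 UMIs). Within this class the gene was 1.94-fold higher with TNF in wildtype (1.02 to 4.26), the opposite direction to the whole mesenchyme, and the Tnfr2-/- to wildtype ratio was 0.411 untreated (0.145 to 1.17). With TNF the log2 difference between the genotypes was −1.67 (interval of the ratio 0.233 to 0.382).

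Aldh1a1 was found in the same wildtype untreated fibroblasts and scarcely elsewhere in mesenchyme. Its counts were 1171, 0, 2 and 1 UMIs, that is 33.7, 0, 0.919 and 0.210 CPM, so 1 library stood far above the other 3. Against a floor of 3 UMIs in the wildtype TNF mesenchyme, the untreated level was at least 165-fold higher. The Tnfr2-/- untreated to wildtype untreated ratio was 0.0273 (0.00330 to 0.0988). Classes of at least 20 cells in both libraries held 1.79% of the wildtype untreated UMIs in this genotype comparison and 0.683% in the TNF comparison. In Mesenchyme-generic the level was 1.53 CPM (2 UMIs) in Tnfr2-/- untreated and 1.45 CPM in wildtype untreated cells. In Mesenchyme-Ptges it was 23.4 CPM (8 UMIs) in wildtype untreated and 0 in wildtype TNF and Tnfr2-/- untreated cells. The part of the class shares in these differences was not tested. The transcript was in 316 of 1430 wildtype untreated mesenchymal cells and in 0 of 306 wildtype TNF cells, which allows a share of up to 0.980% (3 counts of the total).

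By class, Aldh1a1 stood at 45.4 CPM in Mesenchyme-Ifitm1, 43.7 in Mesenchyme-proliferative, 23.4 in Mesenchyme-Ptges (8 UMIs) and 1.45 in Mesenchyme-generic of that library. The intervals of the first 2 overlapped (42.6 to 48.4 and 37.6 to 50.5). Among Mesenchyme-Ifitm1 cells thinned to 5000 UMIs, 12.5% held Aldh1a1 and 28.9% Aldh1a2. Aldh1a1 was in 16.3% of the 257 cells with Aldh1a2 and 10.9% of the 633 without it.

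Stra6 (chromosome 9, 58063788 to 58153996, plus strand), the retinol uptake receptor, had 91.6% of its 670 UMIs in mesenchyme, nearly all of them in the TNF libraries. Its counts were 12, 543, 0 and 59 UMIs, or 0.345, 36.9, 0 and 12.4 CPM. Both TNF libraries were above both untreated libraries, and wildtype TNF was above Tnfr2-/- TNF. In wildtype the TNF to untreated ratio was 107 (interval 60.8 to 208; log2 difference 4.82), and the Tnfr2-/- to wildtype ratio with TNF was 0.335 (0.252 to 0.439; −1.50). In Tnfr2-/- mesenchyme the untreated library had 0 UMIs among 2177022, which allows up to 1.38 CPM by a floor of 3 UMIs, and the gene did not reach the minimum of 20 CPM there.

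Within Mesenchyme-Ptges, Stra6 was counted in 0 of 34, 110 of 304, 0 of 37 and 21 of 122 cells. In wildtype the level was 37.1 CPM with TNF (interval 34.0 to 40.3) and 0 untreated (0 to 10.8), at least 4.23-fold higher against a floor of 3 UMIs in the untreated cells. The 34 untreated cells had a median of 5755 UMIs against 48633 in the TNF cells, so that after thinning the shares, 0 of 24 untreated cells (up to 14.2%) and 12.5% of TNF cells, could not be told apart. In Tnfr2-/- TNF cells 1 cell held 33.9% of the 59 UMIs, and the level was 8.26 CPM without it. In thinned wildtype TNF cells of the class, Stra6 was in 9.09% of 44 cells with Aldh1a2 and 13.1% of 252 without. The other place where Stra6 was counted was the Enteroendocrine class, at 32.0 CPM (21 UMIs) in wildtype untreated, 24.1 (21 UMIs) in wildtype TNF and 10.3 (5 UMIs) in Tnfr2-/- TNF cells. The intervals of these 3 levels overlapped (19.8 to 48.9, 14.9 to 36.9 and 3.33 to 23.9), and 1 cell held 52.4% of the wildtype TNF UMIs.

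RNA of the markers of each population was measured in the other, beside these levels. The 5 fibroblast markers in epithelium were at 0.0961%, 0.261%, 0.0449% and 0.0890% of their mesenchymal level, and epithelial Aldh1a2 was at 0.187%, 1.58%, 0.159% and 0%. The 5 epithelial markers in mesenchyme were at 1.05%, 0.539%, 1.28% and 4.93% of their epithelial level. Mesenchymal Aldh1a3 (2.36, 3.60, 0 and 11.3 CPM) was at 9.74%, 3.21%, 0% and 5.21% of its epithelial level, and mesenchymal Rbp2 at 0.363%, 0.881%, 0% and 4.25%. The Tnfr2-/- TNF mesenchyme, where Aldh1a3 was highest, was therefore also the one with the most epithelial marker RNA; the part of that RNA in its level was not tested.

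Rarb (chromosome 14, 16430839 to 16819156, minus strand) and Crabp2 (chromosome 3, 87948666 to 87953376, plus strand) were close to the limit of counting. Rarb had 39, 1, 0 and 2 UMIs in mesenchyme and 0, 1, 1 and 0 in epithelium. Of the 39, 31 (79.5%) lay in 31 cells of Mesenchyme-Ifitm1 (1.45 CPM, 0.987 to 2.06), a class with 61.3% of all UMIs of that mesenchyme. Mesenchyme-proliferative stood at 0.965 CPM (4 UMIs), with an overlapping interval (0.263 to 2.47). Crabp2 had 43 UMIs in all, 19 of them in Tnfr2-/- TNF epithelium (0.478 CPM, 0.288 to 0.746). Differences between libraries in these genes were mostly within counting error or against a count of 0, and none reached the minimum. The larger gaps were Rarb in wildtype mesenchyme, at 1.12 CPM untreated and 0.0680 with TNF, and Crabp2 in epithelium, at 0.0795, 0.121, 0.0592 and 0.478 CPM.

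In mesenchyme, 3 members reached 20 CPM in the wildtype TNF comparison and 2 of them (Aldh1a1 and Stra6) differed by 2-fold or more, where 13.2% of all genes did. None reached it in the Tnfr2-/- TNF comparison, where 12.4% of genes differed. Between genotypes 2 members reached it and both differed untreated (Aldh1a1 and Aldh1a2), against 7.79% of genes, and with TNF (Aldh1a2 and Stra6), against 14.5%. Aldh1a1, Stra6 and, between genotypes, Aldh1a2 reached the minimum only through the library where they were high. The 2 TNF comparisons share no library, nor do the 2 genotype comparisons, but each TNF comparison shares a library with each genotype comparison. The genotypes also differed in Xist, the transcript of the inactive X chromosome, at 705, 553, 0.459 and 0 CPM in mesenchyme and 558, 683, 0.158 and 0.101 CPM in epithelium, so genotype cannot be told apart from the sex or line of the source animals.

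The 49 other genes of the pathway gave a setting for these members. In wildtype mesenchyme, 19 of them reached the minimum and 5 were at least 2-fold higher and 1 lower with TNF, where 13.2% of all genes differed, with a median log2 difference of 0.32 against 0.00474 for all genes. In Tnfr2-/- mesenchyme 2 of 19 were higher and 2 lower, against 12.4% of all genes (median −0.123 against −0.110). In epithelium 1 was higher and 1 lower with TNF in each genotype, of 12 in wildtype (3.62% of all genes) and 11 in Tnfr2-/- (13.4%), with medians of 0.175 against 0.0385 and 0.113 against −0.119. Between genotypes, 0 of 12 were higher and 2 lower in untreated epithelium (6.01% of all genes) and 1 of 12 higher and 3 lower with TNF (11.4%). In mesenchyme 3 of 18 were higher and 2 lower untreated (7.79%), and 2 of 17 higher and 0 lower with TNF (14.5%).

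In 5 of the 49, both pairs of a comparison differed by 2-fold or more and in 1 direction. For TNF in mesenchyme these were 3 of the 19 list genes at the minimum in both pairs, where 6.28% of 5956 genes did so, and for TNF in epithelium 0 of 10, where 0.992% of 5545 did. For genotype they were 1 of 11 in epithelium, against 2.54% of 5663 genes, and 1 of 16 in mesenchyme, against 3.07% of 5935. Adh1, which oxidizes retinol, was lower in Tnfr2-/- epithelium (61.0, 140, 8.63 and 14.4 CPM; log2 differences −2.69 and −3.19). Akr1b8, of an aldo-keto reductase family that can reduce retinal, was higher with TNF in mesenchyme (113, 504, 153 and 662 CPM; 2.14 and 2.11). Fabp5, which can carry retinoic acid to PPARδ, was higher with TNF there as well (47.6, 131, 81.3 and 255 CPM; 1.44 and 1.64). Tgm2, a transglutaminase known as a retinoic acid target, was lower with TNF in mesenchyme (115, 36.8, 50.5 and 22.8 CPM; −1.62 and −1.11). Dhrs3, which reduces retinal back to retinol, was higher in Tnfr2-/- mesenchyme (7.85, 28.0, 61.6 and 87.4 CPM; 2.82 and 1.61), the reverse of Aldh1a2. These mesenchymal values are sums over classes whose shares differed between libraries. Mesenchyme-Ptges made up 34 of 1430, 304 of 306, 37 of 90 and 122 of 122 mesenchymal cells. The part of the class shares in the mesenchymal differences of the list genes, here and below, was not tested.

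Retinal supply and breakdown genes were read after their values were seen. Rdh10 stood at 66.5, 128, 131 and 215 CPM in epithelium, with all 4 pairwise differences under 2-fold (0.93 and 0.71 with TNF, 0.97 and 0.75 between genotypes). Cyp26b1, which degrades retinoic acid, was mesenchymal (11.4, 24.8, 60.2 and 28.5 CPM, against at most 0.176 CPM in epithelium), higher with TNF in wildtype (1.06) and lower with TNF in Tnfr2-/- cells (−1.05), a difference between the genotypes that was not tested. Crabp1, the relative of Crabp2, was the abundant retinoic acid binding protein of the mesenchyme, at 717, 2311, 1728 and 1587 CPM.

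Over the 27 sums of at least 20 cells, the genes whose log2 (CPM + 1) ran most like each member were taken by Pearson correlation among 10468 genes; the sums share libraries and depth, so the values are a description. Dynap (r = 0.916), Gm4610 (0.913) and Ralb (0.892) were nearest to Aldh1a3. Gsta1 (0.940), Arl14 (0.938) and Hpgd (0.935), all highest in wildtype untreated Absorptive cells, were nearest to Rbp2. Nsg1 (0.957), Arhgap28 (0.956) and Lepr (0.955) were nearest to Aldh1a2, and Pde5a (0.782), Nid2 (0.781) and Tcf21 (0.774) to Aldh1a1. Rap1gap (0.793), Rap1gapos (0.782) and Rab27a (0.780) were nearest to Rbp4, where the second overlaps the first on the genome and may share its reads. Stra6 ran with Fam19a1 (0.861), Scg5 (0.816) and Cdh2 (0.809), all 3 highest in Enteroendocrine cells. Crabp2 and Rarb had too few UMIs for this comparison.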

How the data were processed

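The authors deposited 1 matrix of raw UMI counts per gene and cell (6155 cells, 30360 genes) with tables of genes and of cells, the latter giving library and class. Per the labels, 10x Genomics single-cell 3′ libraries were processed with Cell Ranger 5.0.0 on mm10; which annotation release was used is not stated in these sources. By the study's methods, cells under 100 UMIs and epithelial-mesenchymal doublets were removed and classes came from clustering of these cells; the lowest cell here had 894 UMIs. As a further check, scrublet marked 46 cells (0.747%) as doublets, 25 of them without a class.

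Counts were summed per class, population and library, with all classed cells kept, and divided by total UMIs (CPM). Differences are log2 (CPM + 1). A gene was counted as differing when it reached 20 CPM in 1 of the 2 sums and differed by at least 2-fold; with 1 library per condition no test across samples was made, no p-value is given, and the separate cultures behind a library are unknown. Poisson, conditional and Clopper-Pearson intervals (95%) cover counting error only. Shares of cells used cells thinned to 5000 UMIs, which left out 405 cells. Sequences are from RefSeq (GRCm38.p6), coordinates from GENCODE M21 (30317 of 30360 identifiers matched). No member shared its symbol with another gene; 67 genes did, and they were left out of the comparison of cells with and without Aldh1a3.

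The 8 genes, the 49 further retinoid genes and the marker lists were chosen with earlier results of these data known. Named genes were the 8 members, list genes that differed by 2-fold in both pairs of a comparison, and the 3 genes most correlated with each member of at least 100 UMIs; others are named as chosen after their values were seen. Alternatives were other pseudocounts, minima, scaling (edgeR 4.0.16 TMM and DESeq2 1.42.0 median-of-ratios factors, used as factors only), cell averages, equal class weights, depth and doublet filters. Python 3.11.15 and R 4.3.3 were used.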

Additional observations from a re-analysis of the deposited data

Results flagged for a closer look

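The TNF difference of Aldh1a3 within Progenitor.2 had opposite signs in the genotypes, −0.95 on the log2 scale in wildtype cells and 1.02 in Tnfr2-/- cells, that is, lower with TNF in one and higher in the other. With 1 library per condition the difference between the genotypes was not tested. It rested in part on the wildtype untreated library, where 62 cells gave the level of 649 CPM, 7 of them held 85.0% of the UMIs and 1 held 28.9%; without that cell the level was 484 CPM, still above the 335 CPM with TNF.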

How the results depend on the processing

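No paired analysis was possible because each condition has 1 library and the labels give no replicate number; for the same reason no library could be left out. Counts of members were within 1.5 times the reported count in 111 recalculations and not in 17. With no minimum, counts were 2 instead of 1 (Tnfr2-/- against wildtype, untreated epithelium), 1 instead of 0 (the same with TNF), 3 instead of 0 (TNF in Tnfr2-/- mesenchyme), 4 instead of 2 (genotypes, untreated mesenchyme), and 1 and 2 instead of 0 (higher in Tnfr2-/- mesenchyme, untreated and TNF). With a minimum of 5 CPM the same results were 2, 1 and 2, the fourth stayed within 1.5 times, and the last pair were 1 and 2. Between genotypes in TNF epithelium the count was 1 instead of 0 with TMM or median-of-ratios factors, as the Aldh1a3 difference lies near 2-fold, and 2 with the mean over cells. The setting with classes weighted equally keeps classes of at least 20 cells in both libraries. Absorptive, Mesenchyme-Ifitm1 and Mesenchyme-proliferative thus drop out of every comparison. Counts were then 1 instead of 2 (TNF, wildtype epithelium), 0 instead of 1 (TNF, Tnfr2-/- epithelium) and 0 instead of 2 (genotypes, untreated mesenchyme). In the first of these, neither Aldh1a3 nor Rbp2 passed. The 1 was Rbp4, through the 221 CPM of wildtype untreated Enteroendocrine cells, where 1 cell held 63.4% of the UMIs. Between untreated genotypes the epithelial count stayed at 1, but with Aldh1a3 in place of Rbp2. In that setting Aldh1a3 with TNF in wildtype epithelium reversed, to −0.86; among the settings run, no other member difference that had passed 2-fold changed sign. Over single differences of members, 148 values moved by more than counting error and 875 did not. Levels by class moved in 20 recalculations and not in 61, 17 of the 20 with the mean over cells. Shares of cells moved in 37 and not in 16, without thinning (19) or thinned to 10000 UMIs (18). The added setting without Secretory-Reg4-Ang4 changed no count by over 1.5 times. Depth limits Rarb, Crabp2 and all Tnfr2-/- mesenchymal values, which rest on 90 and 122 cells.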
